A study of Homo sapiens with 6 samples.

Results

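Box C/D small nucleolar RNAs (snoRNAs) were examined in SK-N-AS neuroblastoma cells with and without induced MYCN. Members were genes whose symbol began with SNORD and that were selected on their counts, with at least 10 counts in at least 3 of the 6 libraries. Of 314 SNORD genes listed, 216 passed. No member passed through libraries of only 1 group. Of the 216, 151 lay outside the families SNORD113 to SNORD116, and 65 belonged to those families, which sit in imprinted clusters and were described apart. At the count threshold, SNORD116-9, SNORD116-16, SNORD56B and SNORD121A were just inside, each with exactly 3 libraries at 10 counts or more. SNORD116-12 and SNORD14 were just outside, each with 2 such libraries and the next at 9.83 and 9.5 counts.

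SK-N-AS is a neuroblastoma line without MYCN amplification, and the cells of both groups carried a tetracycline repressor and a tetracycline-inducible MYCN gene, kept in 500 µg/ml G418 and 5 µg/ml blasticidin as single clones. The control group comprised 3 libraries titled ETOH, and the MYCN-induced group comprised 3 libraries of cells given tetracycline for 120 h (5 days). Ribosomal RNA was digested before total RNA libraries were made, and fragments were read from both ends for 150 bases. The study used this model to ask how MYCN acts on circular RNA, and the comparison here asks what the same libraries hold for box C/D snoRNAs.

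MYCN itself was at 30.3, 35.5 and 32.4 CPM (counts scaled to a common library size) in the control libraries and at 210.7, 221.3 and 198.6 in the induced ones, a log2 fold change of 2.68 ± 0.09 (SE, n = 3 per group; edgeR adjusted p = 4.237e-05). All CPM are scaled by TMM, a normalization that assumes most genes do not change. Total counts ran from 64500589 to 102249336 per library. MYCN-induced replicate 3 lay at 68.9 on principal component 1, against 14.4 and 13.1 for induced replicates 1 and 2. The controls lay at -40.2, -30.4 and -25.9, so replicate 3 was on the side of the induced libraries but further out. Counts of calls are also given without this replicate. All 7 adrenergic neuroblastoma markers passed the count threshold, from TH at a mean of 0.897 CPM to HAND2 at 456.1, and so did 6 of 7 mesenchymal ones, with CD44 at 0 in all libraries. Of markers of other cells, PECAM1 stayed under the threshold, while PTPRC, EPCAM and ALB passed it at means of 1.80, 0.390 and 0.204 CPM. Passing the threshold therefore did not set the marker lists apart. Across all 28993 genes tested, 1.03% were called higher and 2.39% lower after induction by edgeR at an adjusted p under 0.05.

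Box C/D snoRNAs are short nucleolar RNAs named for conserved sequence boxes near their ends. Together with the proteins fibrillarin (FBL), NOP56, NOP58 and SNU13 they form a particle that methylates the ribose of ribosomal RNA at sites chosen by base pairing next to the D box. A few members, such as U3, U8, U13, U14 and U22, serve the cleavage and folding of the ribosomal RNA precursor. Most human members are cut from introns of host genes, many of which code for ribosomal proteins or are non-coding small nucleolar RNA host genes (SNHG). SNORD115 and SNORD116 lie in the long non-coding RNA SNHG14 at the Prader-Willi locus, expressed from the paternal chromosome, and SNORD113 and SNORD114 lie in MEG8, expressed from the maternal chromosome. Members of these imprinted families are mostly called orphans, since no ribosomal target is known for them. MYC family proteins are transcription factors known to drive ribosome production.

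The sequences below were read from GRCh38, the build of the files, at the deposited coordinates, 5′ to 3′. Capitals mark the box C core TGATGA in the first 20 bases and the box D core CTGA in the last 20 bases, where these letters were found. The first set holds members of SNHG14, in which all called members lay. SNORD116-13, SNORD116-17, SNORD116-18 and SNORD116-21 passed the test, SNORD116-1 and SNORD116-26 stand for other parts of the array, and SNORD109A had the smallest p among the members that did not pass in the upward direction.
SNORD116-13 (chr15:25079058-25079149, +): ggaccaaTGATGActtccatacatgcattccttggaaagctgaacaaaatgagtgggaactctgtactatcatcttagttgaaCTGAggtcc
SNORD116-17 (chr15:25083588-25083679, +): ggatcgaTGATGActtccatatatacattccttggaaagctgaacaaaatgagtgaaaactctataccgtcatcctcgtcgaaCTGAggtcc
SNORD116-18 (chr15:25085385-25085476, +): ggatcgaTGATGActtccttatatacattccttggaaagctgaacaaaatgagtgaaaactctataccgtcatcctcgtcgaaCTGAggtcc
SNORD116-21 (chr15:25088804-25088895, +): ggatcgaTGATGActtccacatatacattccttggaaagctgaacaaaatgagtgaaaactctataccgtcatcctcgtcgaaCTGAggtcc
SNORD116-1 (chr15:25051477-25051571, +): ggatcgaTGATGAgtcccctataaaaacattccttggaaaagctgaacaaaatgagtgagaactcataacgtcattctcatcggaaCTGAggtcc
SNORD116-26 (chr15:25099499-25099594, +): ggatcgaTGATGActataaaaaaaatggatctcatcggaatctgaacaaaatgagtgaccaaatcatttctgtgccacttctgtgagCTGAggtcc
SNORD109A (chr15:25041974-25042040, +): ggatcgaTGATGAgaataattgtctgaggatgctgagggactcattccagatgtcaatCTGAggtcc

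SNORD116-19, the copy with the smallest p, was identical to SNORD116-17 over all 92 bases (chr15:25086527-25086618). SNORD116-18 differed from SNORD116-17 at 1 position, A19T, and SNORD116-21 differed from it at 1 position, T20C, with positions counted from 1 at the 5′ end and the base of SNORD116-17 first. SNORD116-13 was 87.0% identical to SNORD116-17, SNORD116-1 was 86.3% identical and SNORD116-26 was 71.9% identical. A read pair that fell wholly inside SNORD116-17 or SNORD116-19 had another equal place. The file headers name unique alignments, under which such pairs are not counted, while the study's methods list an option that shares them among places, so how far these copies are separate measurements is uncertain. SNORD116-3, SNORD116-5, SNORD116-7 and SNORD116-9 were likewise identical to each other over 95 bases, as were SNORD62A and SNORD62B over 86.

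The second set shows members of MEG8. SNORD114-20 had the highest level per length of all 216 members, and SNORD114-19, SNORD114-27 and SNORD112 had the smallest p in the downward direction.
SNORD114-20 (chr14:100981004-100981075, +): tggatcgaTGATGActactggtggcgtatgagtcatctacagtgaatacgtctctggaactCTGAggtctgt
SNORD114-19 (chr14:100976477-100976551, +): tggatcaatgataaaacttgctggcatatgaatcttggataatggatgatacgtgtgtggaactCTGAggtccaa
SNORD114-27 (chr14:100988161-100988230, +): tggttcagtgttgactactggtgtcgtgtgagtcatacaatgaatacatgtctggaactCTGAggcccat
SNORD112 (chr14:100897920-100897996, +): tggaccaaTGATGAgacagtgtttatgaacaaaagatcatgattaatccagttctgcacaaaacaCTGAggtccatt
The third set shows members outside the imprinted regions. SNORD17 had the highest CPM, SNORD26 stands for the SNHG1 members, and SNORD63 lies in HSPA9, a host that passed the test.
SNORD17 (chr20:17962710-17962946, -): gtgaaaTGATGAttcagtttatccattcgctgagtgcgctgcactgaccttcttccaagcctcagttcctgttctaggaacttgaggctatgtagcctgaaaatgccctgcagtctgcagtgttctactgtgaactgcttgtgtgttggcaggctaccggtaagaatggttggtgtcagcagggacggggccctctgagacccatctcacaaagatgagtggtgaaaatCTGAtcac
SNORD26 (chr11:62855292-62855366, -): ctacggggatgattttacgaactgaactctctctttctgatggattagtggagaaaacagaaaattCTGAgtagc
SNORD63 (chr5:138561043-138561110, -): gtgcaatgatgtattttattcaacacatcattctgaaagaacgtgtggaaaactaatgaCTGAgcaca

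The letters TGATGA stood in the first 20 bases of 138 of the 216 members (63.9%) and CTGA in the last 20 bases of 199 (92.1%), read on the member's own strand. In windows of the same length just downstream of each member, the shares were 0 of 216 and 16 of 216 (7.4%). Among 169 H/ACA and Cajal body RNAs (SNORA and SCARNA genes), the other large class of small nucleolar RNAs, they were 2.4% and 12.4%. In SNORD114, 20 of 30 copies held TGATGA and all 30 held CTGA. SNORD114-19 and SNORD114-27 are among the 10 copies without TGATGA there. The search was for exact letters only, and members with another base in a box were not counted.

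The imprinted families also differed from the other members in their match to ribosomal RNA (18S, 5.8S and 28S of the RefSeq annotation on GRCh38, chromosome 21). Outside SNORD113 to SNORD116, 116 of 151 members (76.8%) held an uninterrupted complementary run of at least 10 bases, counting only A-T and G-C pairs. In 69 of these 116 the run ended no more than 3 bases before a CTGA. Of SNORD113 to SNORD116, 5 of 65 (7.7%) held such a run, and in none of these 5 did it end that close to a CTGA. In the windows just downstream the share was 63 of 216 (29.2%). The run in SNORD26 was 13 bases long against 28S positions 395 to 407 and ended 1 base before a CTGA, and that in SNORD63 was 11 bases long against 28S positions 4565 to 4575, also 1 base before a CTGA. The longest, in SNORD20, was 21 bases against 18S. The called copy SNORD116-19 had 9 bases at most, against 18S positions 461 to 469, and this run ended 3 bases before a CTGA. The same held for the other called copies. These matches describe letters only, and copies within SNORD114 and within SNORD116 resemble each other, so they are not independent.

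**Figure D1:**
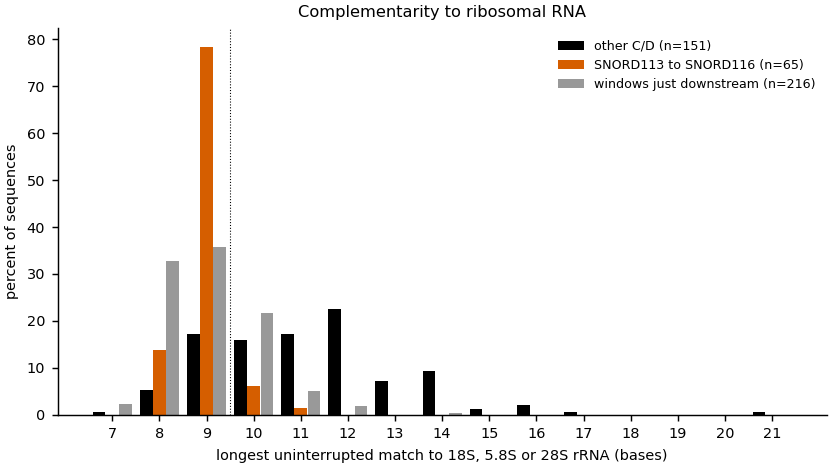
Longest uninterrupted Watson-Crick match to 18S, 5.8S or 28S ribosomal RNA (x axis, bases) as the percent of sequences in each class (y axis), for 151 members outside SNORD113 to SNORD116 (black), 65 members of those families (orange) and 216 same-length windows just downstream of the members (grey). To the right of the dotted line, at 10 bases or more, lie 76.8% of the black, 7.7% of the orange and 29.2% of the grey sequences.

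Levels were low. The mean over all 6 libraries ran from 0.106 CPM to 68.9 CPM with a median of 0.843, and 122 of the 216 members averaged under 1 CPM. Members are short, with a median length of 77 bases, and 207 of the 216 were shorter than the 150 bases of a read. The exon of 119 members overlapped an exon of its host, where the authors' counting shared a read pair equally among the genes it touched. Counts on these members and RNA of the unspliced or spliced host cannot be told apart, and neither can less RNA per cell and fewer cells of a kind.

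Outside the imprinted families none of the 151 members passed the edgeR test in either direction, against 1.03% of all genes higher and 2.39% lower. The median log2 fold change was 0.09, with 100 members above 0 and 51 below and a range from -1.37 to 0.86, while the median over all 28993 genes was -0.0003. At an unadjusted p under 0.05, 11 members were higher and 2 lower, where 8.15% and 10.6% of all genes were. The 3 induced libraries lay wholly above the 3 control libraries in 12 members and wholly below in 3, where 11.5% and 14.7% of all genes did. DESeq2 called 4 members higher (SNORD93, SNORD108 and both SNORD3D entries) and 1 lower (SNORD112), against 3.12% and 4.15% of all genes. SNORD108 and SNORD112, though named outside the imprinted families, lie in SNHG14 and MEG8.

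The 3 induced libraries did not move together for these 151 members. Their median log2 level relative to the control mean was 0.22 and 0.24 in induced replicates 1 and 2 and -0.22 in replicate 3, against 0.07, -0.04 and 0.00 in the controls. Without induced replicate 3 edgeR called 14 of the 151 higher, where 3.64% of all genes were called higher and 4.38% lower, and the median log2 fold change was 0.24. Without induced replicate 2 the median was -0.02 and 2 members, SNORD3A and SNORD3B-1, were called lower. The share of all genes called in that fit is not given here. The summed level of the 151 was 280.9, 271.5 and 290.9 CPM in control and 329.3, 301.6 and 296.8 CPM in induced libraries, so the groups did not overlap in the sum. Scaled by library size alone, induced replicate 3 was at 276.5 against 274.1 to 291.3 in controls, and they did. Without the 5 highest members the sums were 186.8, 175.7 and 184.1 against 217.6, 219.9 and 156.3, and induced replicate 3 was the lowest of all.

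The same library was also at an extreme in the summed level of other short RNAs. H/ACA and Cajal body RNAs summed to 694.4, 771.6 and 832.3 CPM in control and to 737.0, 570.9 and 998.4 in induced libraries, with replicate 2 the lowest and replicate 3 the highest. A list of 23 other short structured RNAs, among them RMRP, RN7SK and RN7SL1, made up 3.24% to 4.25% of counts in control and 2.75% to 4.37% in induced libraries, again with replicate 2 lowest and replicate 3 highest. None of 169 H/ACA and Cajal body RNAs passed the edgeR test or DESeq2, and 3 were higher and 2 lower at an unadjusted p under 0.05, where 8.15% and 10.6% of all genes were. Their median log2 fold change was 0.03. Sums follow the most abundant RNAs, and the medians relative to the control mean did not show replicate 3 as highest. For H/ACA and Cajal body RNAs they were 0.08, 0.02 and -0.04 in induced replicates 1, 2 and 3, against 0.03, -0.003 and 0.01 in controls. For the other short RNAs they were 0.12, -0.11 and -0.03, against -0.05, 0.06 and 0.07. The part of these library differences in the snoRNA values was not tested.

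In the SNORD116 family 5 of 25 tested members were higher after induction and none lower by edgeR, where 1.03% and 2.39% of all genes were. All 5 lay among copies 13 to 21 of the SNHG14 array. The family median was 0.68 on the log2 scale, and 24 of its 25 members were above 0. DESeq2 called 6 higher, the same 5 and SNORD116-20, where it called 3.12% of all genes higher. The 24 copies in SNHG14 summed to 8.35, 8.26 and 7.98 CPM in control and 13.5, 13.9 and 16.4 in induced libraries.

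SNORD116-13 was at 0.793, 0.880 and 0.848 CPM in control and 1.42, 1.52 and 1.53 in induced libraries. Every induced value lay well above every control value, and the log2 fold change was 0.83 ± 0.14 (SE, n = 3 per group; edgeR adjusted p = 0.0214). SNORD116-19 was at 0.831, 0.835 and 0.947 CPM in control and 1.65, 1.66 and 2.21 in induced libraries (1.08 ± 0.17; edgeR adjusted p = 0.0191). The lowest induced library was again far above the highest control. SNORD116-17, identical to it in sequence, was at 0.926, 1.16 and 1.085 against 1.63, 2.09 and 2.65 CPM (1.01 ± 0.20; edgeR adjusted p = 0.0397). SNORD116-18, 1 base apart from SNORD116-17, was at 0.869, 1.11 and 1.11 against 1.63, 2.06 and 2.58 CPM (1.03 ± 0.20; edgeR adjusted p = 0.0381). In these last copies induced replicate 3 was the highest library. SNORD116-21 was at 0.764, 0.609 and 0.661 against 1.08, 1.13 and 1.23 CPM (0.75 ± 0.16; edgeR adjusted p = 0.0474).

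The 5 calls depended on which libraries were included. Without control replicate 1, 2 or 3, or without induced replicate 1, edgeR called none of the SNORD116 members. Without induced replicate 2 only SNORD116-19 was called. Without induced replicate 3 the same 5 were called. The share of all genes called is given above only for the fit without induced replicate 3. In the other fits that left out a library, the lost calls are therefore not set against those over all genes. SNORD116-21 was also not called with a replicate block (edgeR adjusted p = 0.0808) or with library size scaling (edgeR adjusted p = 0.0639). The log2 fold changes of the 5 copies stayed between 0.68 and 1.18 in these fits. The counts behind them were small, from 54.0 for SNORD116-21 in control replicate 2 to 224.83 for SNORD116-17 in induced replicate 3.

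**Figure D2:**
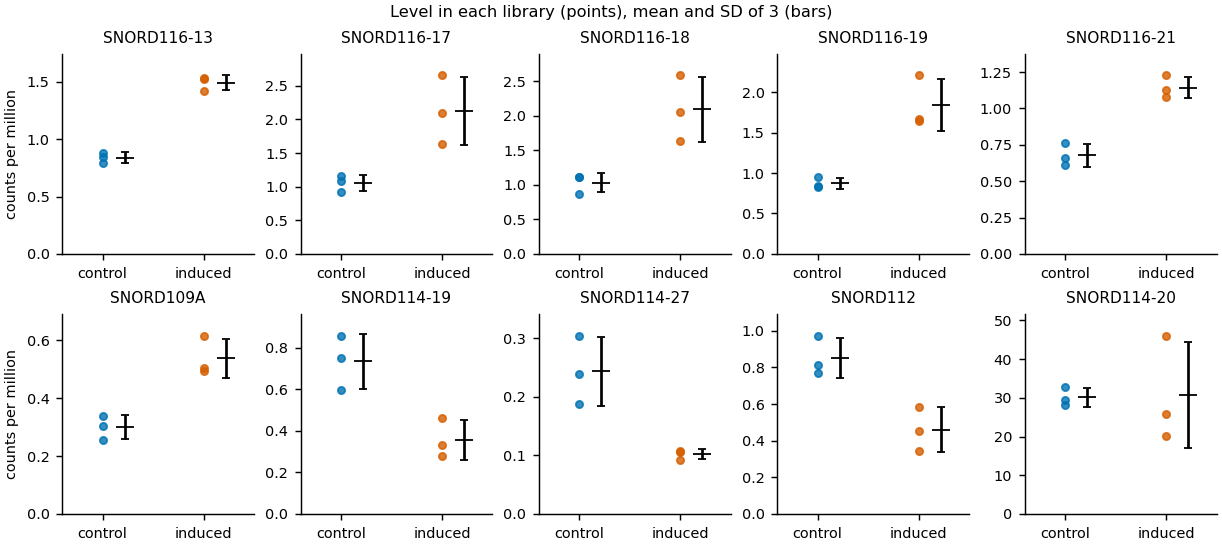
CPM (y axis) in the 3 control (blue) and 3 MYCN-induced (orange) libraries for 10 members, with the mean and SD of each group in black. The top row holds the 5 called SNORD116 copies, each with all induced values above all control values, and in the bottom row SNORD114-20 overlaps, with induced replicate 2 at 46.1 CPM.

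Values along the array were as follows, with no test of the differences between copies. Copies 1 to 9 (8 tested, 92.7% to 100.0% identical to each other) ranged from 0.38 to 0.80 on the log2 scale around a median of 0.57, and none was called. The 9 tested copies from 14 to 24, 92.4% to 100.0% identical, had a median of 0.83, 4 were called higher and 8 were higher without overlap between groups, where 1.03% and 11.5% of all genes were. These groupings were made after values were seen. Copy 24 was at 0.04 ± 0.33, and SNORD116-20 had the largest value, 1.08 ± 0.28, with an edgeR adjusted p of 0.0856. Called copies were also the more abundant ones, since they held the 5 highest mean levels of the array, from 0.911 to 1.59 CPM, and the next was SNORD116-4 at 0.562. SNORD116-16, at the count threshold, had 0.49 ± 0.33. The remaining member of the family name, SNORD116 on chromosome 9 inside an intron of MVB12B, went the other way at -0.52 ± 0.21 (edgeR adjusted p = 0.237).

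The host transcript SNHG14, the long non-coding RNA that holds 28 tested members, rose from 199.1, 182.6 and 179.2 CPM in control to 274.5, 270.2 and 282.6 in induced libraries. Its log2 fold change was 0.56 ± 0.07 (SE, n = 3 per group; edgeR adjusted p = 0.00715), and without control replicate 2 its adjusted p was 0.0714. All 28 members in SNHG14 had a log2 fold change above 0, with a median of 0.67, and 18 had no overlap between the groups, where 11.5% of all genes were higher without overlap. The 4 members named outside SNORD116 were SNORD64, SNORD107, SNORD108 and SNORD109A. SNORD109A was at 0.306, 0.338 and 0.256 CPM in control and 0.616, 0.504 and 0.495 in induced libraries (0.84 ± 0.21; edgeR adjusted p = 0.0772). SNORD108 was at 1.24, 1.32 and 1.30 against 1.79, 2.19 and 1.72 CPM (0.56 ± 0.14; edgeR adjusted p = 0.0830). SNORD64 had the smallest value of the 4, 0.32 ± 0.20, and its groups overlapped. The median of member minus host was 0.11 on the log2 scale, with a range from -0.52 to 0.52. Per length, 20 of the 28 members stood above SNHG14 itself, all 5 called copies among them. This level divides by annotated length, while a read pair that reaches beyond a member is still counted on it. Short members are thereby raised against a long host, so the comparison does not separate member RNA from host RNA. Of the 24 SNORD116 copies here only 2 overlapped no other exon, at 0.80 and 1.01, and 1 of these was called. The values of the remaining copies can include read pairs shared with another gene. SNORD115, the other large family of this host, had 48 copies listed there and none exceeded 1 count in any library. The single SNORD115 that was tested lies on chromosome 10 (0.35 log2 fold change, overlapping groups).

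**Figure D3:**
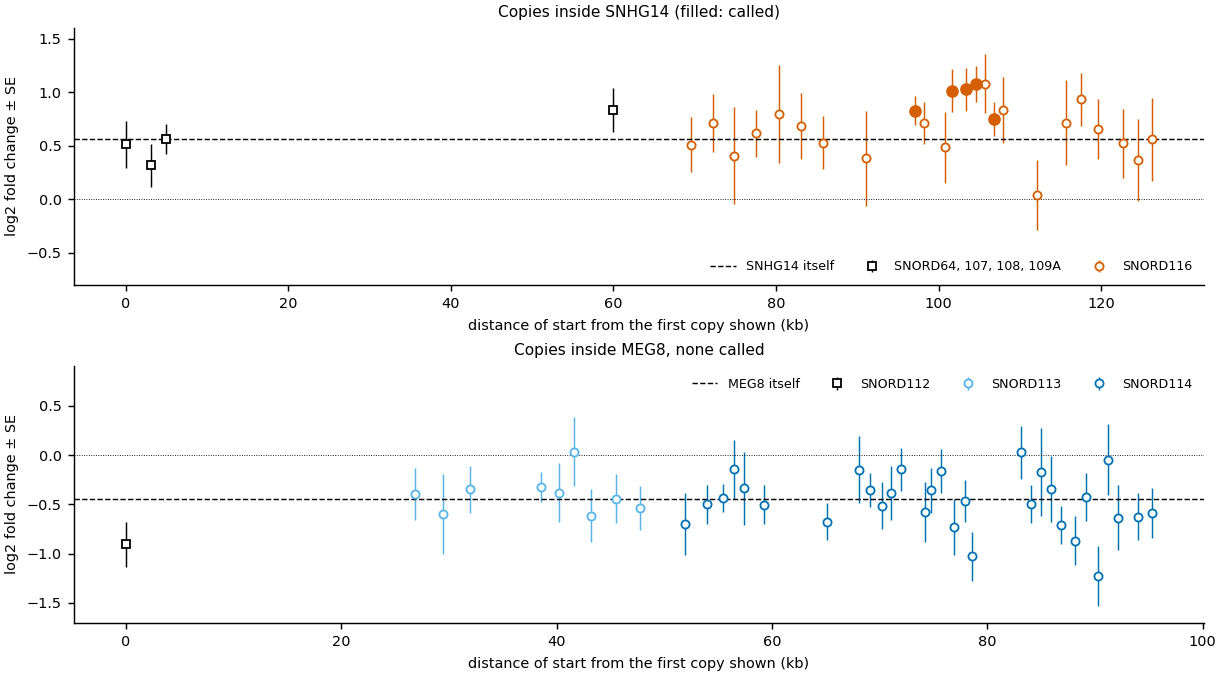
Log2 fold change ± SE (y axis) of each tested member along SNHG14 (top) and MEG8 (bottom) against the distance of its start from the first member shown (x axis, kb). Filled points passed the test, the dashed line is the host gene, at 0.56 for SNHG14 and -0.45 for MEG8, and all 28 points of the top panel lie above 0 while 38 of 40 in the bottom panel lie below it.

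The members of MEG8 lay mostly below 0 but none passed the test. Of 30 SNORD114 copies 29 had a log2 fold change below 0, with a median of -0.48, and of 9 SNORD113 copies 8 did, with a median of -0.39. In SNORD114, 16 copies were without overlap and lower, where 14.7% of all genes were, and 11 had an unadjusted p under 0.05, where 10.6% of all genes were lower. DESeq2 called 2 SNORD114 copies lower, SNORD114-19 and SNORD114-7, and SNORD112 besides, where it called 4.15% of all genes lower.

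SNORD114-19 was at 0.859, 0.598 and 0.749 CPM in control and 0.277, 0.461 and 0.330 in induced libraries (-1.03 ± 0.25; edgeR adjusted p = 0.0691). SNORD114-27 had the lowest value of the family at -1.23 ± 0.31, from 0.239, 0.305 and 0.187 to 0.0925, 0.107 and 0.106 CPM (edgeR adjusted p = 0.0788), on 6 to 10 counts in each induced library. SNORD112 was at 0.974, 0.812 and 0.769 against 0.586, 0.451 and 0.342 CPM (-0.91 ± 0.23; edgeR adjusted p = 0.0797). All induced libraries were below all control libraries in these 3. Of the other leading members, SNORD114-24 was at -0.71 ± 0.19, SNORD114-7 at -0.67 ± 0.19 and SNORD114-25 at -0.87 ± 0.25, with edgeR adjusted p of 0.0973, 0.106 and 0.111.

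The size of the difference varied between induced libraries. The median of SNORD114 relative to the control mean was -0.32, -0.22 and -0.83 in induced replicates 1, 2 and 3, and that of SNORD113 was -0.30, -0.11 and -0.88. Induced replicate 3 was the lowest of the 6 libraries in 35 of the 39 copies. Without it the medians of the fold changes were -0.29 and -0.20. The part of this library in the result was not tested beyond these values. The host MEG8 was at 221.7, 189.2 and 200.4 CPM in control and 157.7, 180.9 and 110.1 in induced libraries (-0.45 ± 0.17; edgeR adjusted p = 0.204), with the same lowest library. The median of member minus host was -0.01.

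SNORD114-20 was unlike the other copies in level. It was at 32.7, 28.2 and 29.4 CPM in control and 25.8, 46.1 and 20.1 in induced libraries, the induced replicates lying on both sides of the controls (0.03 ± 0.27, 95% interval -0.50 to 0.56; edgeR adjusted p = 0.970). Per kilobase it averaged 421.9 CPM, the highest of all members and 65.7 times that of MEG8, and the next of the 2 families, SNORD113-3, averaged 50.1. As for the members of SNHG14, the ratio to the host is raised by the short length of the copy. The sum of SNORD113 and SNORD114 in induced replicate 2, 84.1 CPM against 66.8 to 78.9 in controls, rests on it, since the sum without SNORD114-20 was 38.0 against 38.7 to 46.2. The copies of SNORD114 were 53.2% to 94.4% identical to each other, and none was identical to SNORD114-20.

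**Figure D4:**
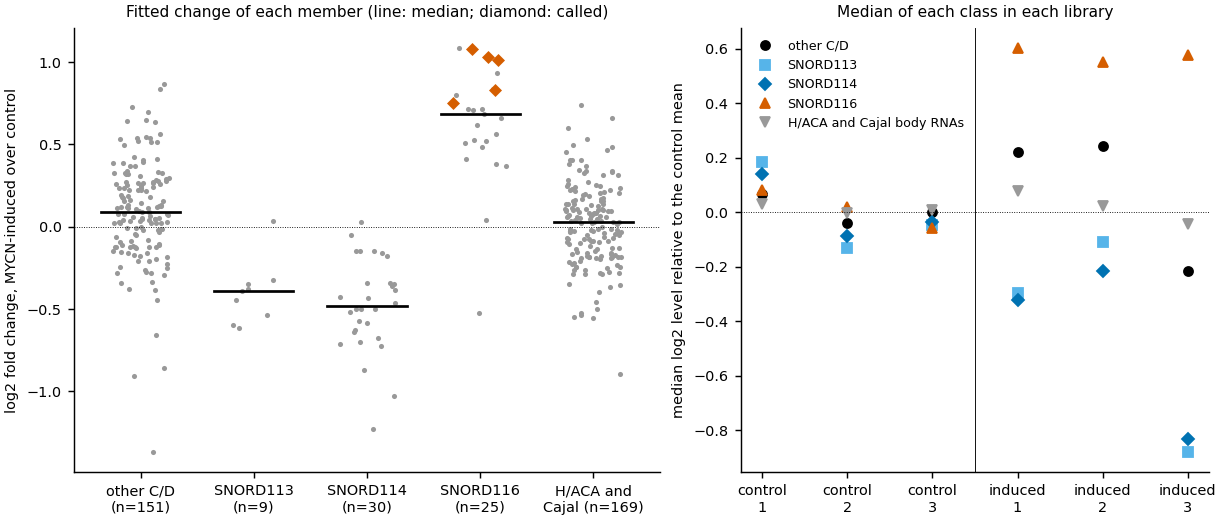
Left, log2 fold change (y axis) of every member by class, with the class median as a line and called members as orange diamonds; all 5 diamonds are SNORD116 copies. Right, the median log2 level of each class relative to the control mean (y axis) in each of the 6 libraries (x axis), where SNORD116 is between 0.55 and 0.60 in all induced libraries and the other members outside the imprinted families are above 0 in induced replicates 1 and 2 and below 0 in replicate 3.

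None of the members that serve precursor processing passed the edgeR test. DESeq2 called both SNORD3D entries higher, and without induced replicate 3 edgeR also called SNORD3B-2, SNORD14A, SNORD14D and 1 of the SNORD22 entries higher. U3 RNA, which guides the first cleavages of the ribosomal precursor, is listed under several near-identical SNORD3 genes on chromosome 17, and reads could be split among them or lost as not unique. SNORD3A was at 0.974, 1.35 and 1.32 CPM in control and 0.432, 1.26 and 0.283 in induced libraries, and SNORD3B-1 was at 0.840, 0.970 and 0.986 against 0.123, 0.837 and 0.0708. In both, induced replicates 1 and 3 were low and replicate 2 was close to the controls, with log2 fold changes of -0.86 ± 0.47 and -1.37 ± 0.67 (edgeR adjusted p = 0.388 and 0.329). Without induced replicate 2 they were at -1.78 and -3.29 (edgeR adjusted p = 0.0404 and 0.0133). SNORD3B-1 had the lowest fold change of all members, on 8.5 and 5.5 counts in induced replicates 1 and 3 against 78 in replicate 2. SNORD3B-2 was at 9.68, 9.996 and 11.9 against 15.1, 14.2 and 9.32 CPM and SNORD3C at 1.30, 1.05 and 1.31 against 1.603, 2.15 and 1.04, each with overlap. The pair of SNORD3D entries, which overlap each other on the genome, had no overlap between the groups, from 1.16 to 1.38 CPM in control and from 1.64 to 2.39 in induced libraries (0.65 ± 0.17 for each; edgeR adjusted p = 0.0894 and 0.0908).

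U8 (SNORD118), needed for 5.8S and 28S maturation, was at 0.879, 0.948 and 0.986 CPM in control and 1.23, 1.16 and 0.566 in induced libraries (0.07 ± 0.28, 95% interval -0.48 to 0.61). U13 (SNORD13) had -0.38 ± 0.21. The U14 genes pair with 18S and serve its processing. SNORD14C, SNORD14D and SNORD14E in HSPA8, the gene of the constitutive HSP70 chaperone, had 0.53 ± 0.23, 0.72 ± 0.26 and 0.54 ± 0.25, and SNORD14A and SNORD14B in the ribosomal protein gene RPS13 had 0.32 ± 0.20 and -0.09 ± 0.15. The edgeR adjusted p of these 5 ran from 0.184 to 0.812. U22 (SNORD22), listed under 2 identifiers in SNHG1, had 0.37 ± 0.21 and 0.12 ± 0.21.

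The 7 tested members of SNHG1, a non-coding host whose introns carry several guides, all had a log2 fold change above 0, from 0.12 to 0.52, and none passed the test. SNORD26 was at 4.97, 5.18 and 5.45 CPM in control and 7.41, 7.81 and 4.88 in induced libraries (0.37 ± 0.18; edgeR adjusted p = 0.322). SNORD30 was at 2.81, 2.76 and 3.02 against 4.64, 4.99 and 2.701 CPM (0.52 ± 0.22; edgeR adjusted p = 0.256). In both, replicates 1 and 2 were far above the controls and replicate 3 was below the lowest of them. The class median was 0.60, 0.59 and -0.19 relative to the control mean in the 3 induced libraries, and without induced replicate 3 edgeR called 6 of the 7 higher, where it called 3.64% of all genes higher. SNHG1 itself was at 101.1, 97.6 and 101.8 against 135.7, 122.6 and 102.9 CPM, with all induced values above all controls (0.27 ± 0.10; edgeR adjusted p = 0.209). No member of GAS5, another such host, reached the count threshold, and GAS5 itself had 0.18 ± 0.08 (edgeR adjusted p = 0.268).

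SNORD93 in SNHG26, was chosen for description after its values were seen. It was at 1.34, 1.33 and 1.44 CPM in control and 2.93, 2.94 and 1.63 in induced libraries (0.86 ± 0.23; edgeR adjusted p = 0.0931), and SNHG26 was at 12.5, 11.9 and 11.9 against 25.2, 25.5 and 11.9. In induced replicate 3 the member was above the highest control, and the host was level with the lowest. SNORD63 in HSPA9, the gene of the mitochondrial HSP70 chaperone, was likewise chosen after its values were seen. It was at 0.802, 0.722 and 0.700 against 1.06, 1.17 and 1.003 CPM (0.54 ± 0.15; edgeR adjusted p = 0.106), and HSPA9 rose from 376.6, 373.1 and 372.2 to 488.8, 528.3 and 584.5 (0.51 ± 0.08; edgeR adjusted p = 0.0173).

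None of the most abundant members passed the edgeR test with all libraries. SNORD3B-2 and SNORD26, described above, are among the 5 highest outside the imprinted families, and both were called higher without induced replicate 3. SNORD17, in an intron of SNX5, was at 60.8, 63.2 and 72.5 CPM in control and 68.3, 40.5 and 108.3 in induced libraries (0.14 ± 0.30, 95% interval -0.44 to 0.73). Induced replicates 2 and 3 were the lowest and the highest of the 6. SNORD86 in NOP56 was at 11.5, 10.1 and 10.1 against 12.5, 12.4 and 7.38 CPM (0.02 ± 0.20). SNORD49B in SNHG29 had 0.28 ± 0.16, SNORD83A in RPL3 had 0.11 ± 0.15 and SNORD11 in NOP58 had 0.13 ± 0.15. The 39 members in ribosomal protein genes had a median of 0.07 and a range from -0.45 to 0.33, with none called.

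Of the 216 members, 200 lay inside a host of the same strand, in 74 host genes. Outside MEG8 and SNHG14 there were 132 pairs of member and host in 72 hosts. The median member change was 0.09 and the median host change 0.11, and the median of member minus host was -0.004, with a range from -0.48 to 0.58. In 89 of the 132 pairs member and host had the same sign, and in 129 they were within 0.5 of each other on the log2 scale. Of the 72 hosts 54 were above 0, as were 97 of the 148 members outside MEG8 and SNHG14. With most values slightly above 0, such agreement is likely in any pairing, and it was not tested. Spearman's rho across these pairs was 0.46, and 0.30 in the 52 pairs whose member overlaps no other exon. Members share hosts and, where exons overlap, reads, so the pairs are not independent. By edgeR 1 of these 72 hosts was higher (HSPA9) and 1 lower (MIR31HG), where 1.03% and 2.39% of all genes were. MIR31HG, a long non-coding RNA with SNORD39 in it, had -1.03 ± 0.21 (edgeR adjusted p = 0.0442). SNORD39 in MIR31HG was at 1.117, 1.13 and 0.986 CPM in control and 0.940, 0.708 and 0.425 in induced libraries (-0.66 ± 0.26; edgeR adjusted p = 0.236), the induced libraries all below the controls.

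**Figure D5:**
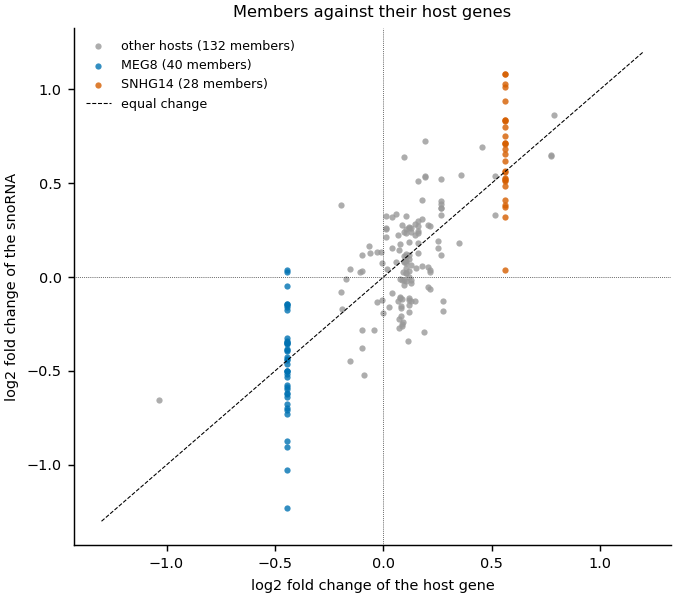
Log2 fold change of each member (y axis) against that of its host gene (x axis) for 200 members, with MEG8 in blue, SNHG14 in orange and all other hosts in grey; the dashed line marks equal change. Members of MEG8 and SNHG14 form columns at -0.45 and 0.56, and 129 of the 132 grey points are within 0.5 of the dashed line.

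The E-box CACGTG, the letters that MYC family proteins are known to bind, was searched on both strands in RefSeq promoter windows of GRCh38, from 250 bases before to 50 after each gene start. Of the 74 hosts, 59 matched a window, and 6 of these held it (10.2%), against 7.4% of all 27305 windows. The 6 were RPL13A, WDR43, UBAP2, HSPA9, TNPO2 and EIF4G1. HSPA9 is the host among them that passed the test. SNHG14, the host of all called members, and MIR31HG also passed, and their windows did not hold the E-box. MEG8 matched no window. A link between the E-box and the host changes was not tested.

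Proteins of the box C/D particle were tested for the same comparison. NOP56 was at 203.6, 196.9 and 197.3 CPM in control and 227.9, 227.1 and 188.6 in induced libraries (0.11 ± 0.08; edgeR adjusted p = 0.564), and NOP58 at 132.8, 130.2 and 136.2 against 148.3, 156.9 and 140.2 (0.16 ± 0.07; edgeR adjusted p = 0.252). FBL, the methyltransferase, had -0.18 ± 0.18 and SNU13, which binds the C/D fold first, had -0.12 ± 0.10. The list held 29 proteins of the particle, its assembly, its transport, the U3 particle and snoRNA trimming. Of these, 1 was called higher and none lower, where 1.03% and 2.39% of all genes were. At an unadjusted p under 0.05, 10 were higher, where 8.15% of all genes were. The call was RRP9, a U3-specific protein, from 9.07, 10.4 and 11.4 to 16.6, 18.1 and 18.4 CPM (0.78 ± 0.11; edgeR adjusted p = 0.0131). The assembly factor ZNHIT6 had 0.23 ± 0.06 (edgeR adjusted p = 0.0951). The median over the 29 was 0.13. Among the 23 other short structured RNAs, edgeR called only RNU6ATAC, of the minor spliceosome, and it was lower at -1.10 ± 0.16 (edgeR adjusted p = 0.0145). Over all genes, 2.39% were called lower.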

How the data were processed

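RNA was sequenced from 3 control and 3 MYCN-induced libraries. The authors deposited estimated counts, made per the file headers with featureCounts 1.6.4 over exons from unique STAR alignments to GRCh38, with pairs that touch several genes shared in equal fractions and no strand option. The submitters' processing notes name STAR 2.7.1a and featureCounts 1.5.1, and the study's methods list strand-specific counting with multi-mapping reads included, which the headers do not show. Names came from GENCODE 44, where all 216 members had the same coordinates. The study describes the replicates as independent experiments.

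The 28993 genes with 10 or more counts in 3 or more libraries were rounded and tested with the quasi-likelihood test of edgeR 4.0.16 (R 4.3.3), TMM, no replicate block, Benjamini-Hochberg over all genes, threshold 0.05. DESeq2 1.42.0, other scalings and filters and leaving out each library were alternatives. On simulated data for this comparison (28563 genes), edgeR called 64.3% of genes changed by a log2 fold change of 1 and 91.7% at 1.5. The changed genes were drawn at random from all genes, with no library set apart as induced replicate 3 was. These shares therefore do not describe recovery among the members, most of which were at low levels. Hosts are same-strand protein-coding or long non-coding genes that span the member, and with several, the one with the highest level. Named members are the processing snoRNAs, the 8 highest in CPM, all called members, the 6 smallest p in each direction, examples of the SNHG1, SNHG14 and MEG8 hosts, the highest of each imprinted family, those at the count threshold, core proteins and MYCN. Other members are named as chosen after their values were seen. The members and lists were chosen with earlier results of these data known. Sequences were read with pysam 0.24.0. Replicates of a group differed by more than sampling noise.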

Additional observations from a re-analysis of the deposited data

How the results depend on the processing

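Under library size scaling, size factors of DESeq2 in edgeR, DESeq2 itself, no count filter, a mean of at least 50 counts and the filter on rounded counts (chosen after seeing the data), the median log2 fold change of the members outside SNORD113 to SNORD116 ran from 0.07 to 0.12, and 0.08 among members with no exon overlap. Leaving out 1 library, it ran from -0.02 to 0.24. DESeq2 called 4 of these members higher and 1 lower, where 3.12% and 4.15% of all genes were, and no count filter gave 1 higher. Leaving out 1 library, 0 to 14 were called higher and 0 to 2 lower. The 14 came without induced replicate 3, where 3.64% of all genes were called higher and 4.38% lower. In SNORD113 to SNORD116, 0 to 5 members were called higher and 0 to 1 lower when 1 library was left out. DESeq2 called 2 of them lower, where 4.15% of all genes were, and no count filter gave 1 lower. Of hosts, DESeq2 called 5 higher, where 3.12% of all genes were, and leaving out 1 library gave 0 to 11 higher and 0 to 1 lower. H/ACA and Cajal body RNAs gave 0 to 1 higher and 0 to 1 lower, and particle proteins 0 to 6 higher, with 2 higher by DESeq2. The 6 came without induced replicate 3, and the shares of all genes were those given above. Among the fits that left out a library, shares of all genes are given only for the one without induced replicate 3. The cause of these changes was not tested.

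The correlations of the deviations of same-numbered replicates were 0.213, -0.021 and 0.073. The highest with another number were -0.054, 0.058 and 0.079 for replicates 1, 2 and 3. Only replicate 1 correlated most with its own number. With 3 libraries per group, these values do not settle whether same-numbered replicates were paired. With a replicate block 4 SNORD116 copies were called, SNORD116-21 not among them (adjusted p = 0.0808), 0 hosts were lower and the median of members outside the imprinted families was 0.07. Under the replicate block SNORD114-20 was at -0.0598 and SNORD86 at -0.0119. Library size scaling gave SNORD116-21 an adjusted p of 0.0639. Setting imprinted members apart by host gene instead of by name, chosen after seeing the data, left 148 members with 0 called in either direction by edgeR. DESeq2 called 3 of them higher, where 3.12% of all genes were, and edgeR without induced replicate 3 called 13 higher, where 3.64% were.

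Leaving out 1 library turned the sign of members near 0: FBL ran from -0.34 to 0.0344, SNORD114-20 from -0.39 to 0.27, SNORD118 from -0.11 to 0.36, SNORD14B from -0.24 to 0.0004, SNORD17 from -0.26 to 0.43, SNORD22 (ENSG00000277194.1) from -0.10 to 0.33 and SNORD86 from -0.10 to 0.24. Depth limits precision, since 122 members averaged under 1 CPM.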

Other observations

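Other genes of both imprinted regions were measured in the same libraries. MEG3, the maternally expressed non-coding RNA next to MEG8 on chromosome 14, was at 597.1, 584.6 and 594.1 CPM in control and fell to 388.5, 389.1 and 378.5 in induced libraries, a log2 fold change of -0.62 ± 0.06 (SE, n = 3 per group; edgeR adjusted p = 0.00374). Induced replicate 3 was not apart from the other induced libraries there, unlike in MEG8. On chromosome 15, SNRPN, the paternally expressed gene at the start of the SNHG14 region, was at 13.9, 13.8 and 13.8 CPM in control and 20.8, 16.2 and 24.6 in induced libraries (0.57 ± 0.15; edgeR adjusted p = 0.0843). UBE3A, which SNHG14 runs antisense to, was at 201.1, 181.2 and 175.4 against 188.4, 206.7 and 180.4 CPM (0.05 ± 0.08; edgeR adjusted p = 0.821). The spans of UBE3A and SNHG14 overlap, and counting per the headers was without a strand option. How far their counts are separate measurements is therefore uncertain.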
